A study of Mus musculus with 9 samples.

Results

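The resting transcriptome of fetal liver (FL) macrophages was described in the 4 control samples of a 9-sample RNA-seq series on the phosphate exporter gene Xpr1. The members were all samples labelled Xpr1fl/fl, 4 of the 9 libraries, and the description covered every one of the 13708 genes of the expression table. Each sample was RNA of macrophages sorted from livers at E15.5, gated as CD45+ F4/80hi CD11blow, with 45 ng of total RNA put into library preparation. The control embryos carried both floxed Xpr1 alleles, in which loxP sites flank exon 2, on a C57BL/6JRj background and without Cre. The floxed alleles are therefore present in all samples described here, and no wild-type sample was analysed here. Tim4-high and Tim4-low cells both fell within the gate, and how many of either a control sample held is not given in the sources used here. The sources used here do not say whether 1 liver or a pool of livers stood behind a sample, so the spread between the 4 samples may hold technical as well as biological differences.

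Macrophages of the fetal liver settle there early in development, before blood production moves to the bone marrow, and many persist as the Kupffer cells of the adult organ. At this age the liver is the main site of red cell production, and its macrophages stand at the centre of erythroblastic islands, where maturing erythroblasts attach, extrude their nuclei and leave them to be engulfed. The work of these cells is known to include clearance of nuclei and spent cells, digestion in lysosomes, release of iron from heme, and export of that iron through ferroportin.

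The normalized counts summed to between 26942921 and 28291555 per sample, and 13249 to 13367 genes reached 10 normalized counts in a sample. The spacing of the lowest values gave rough estimates of the sequencing depths of controls 1 to 4, 0.832, 1.13, 1.1 and 0.946 times their average. Most low values did not lie near whole multiples of that spacing, so these depths are uncertain. The column headers carry dates, the same one for controls 1 to 3 and another for control 4, and what the date marks is not given in the sources used here. Between pairs of controls the Pearson correlation of log2(normalized count + 1) over all genes ran from 0.973 for controls 1 and 4 to 0.983 for controls 1 and 2. It is a description across genes, which are not independent replicates. Values below are normalized counts as mean ± SD over the 4 samples (n = 4), and values of single samples are given in the order control 1, 2, 3 and 4. With 1 group of 4 samples no test between groups was made, so differences between genes are described by whether their ranges over the 4 samples overlap. Ranks, leading genes and shares given by normalized count describe where the reads lay, and a longer transcript gives more of them. Transcript levels of different genes are set against each other per kilobase (kb) of their canonical transcript.

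The label of the samples was checked against 6 markers of fetal liver macrophages, and all 6 were high in every control. Adgre1, which encodes the F4/80 antigen on which the cells were sorted, held 42568, 42249.8, 46795 and 52419 normalized counts and ranked 47 of 13708. It lies on chromosome 17 at 57665573 to 57790527 of GRCm39. Timd4, which encodes the phosphatidylserine receptor Tim4 (chromosome 11, 46701620 to 46735177), held 14657, 13251, 16045 and 17179. Vcam1, the adhesion molecule that binds erythroblasts (chromosome 3, 115903598 to 115923355), held 54416, 41095, 62172 and 54301. These 3 surface genes were present throughout, with control 2 lowest for each.

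Cd5l, a secreted protein of the scavenger receptor cysteine-rich family (chromosome 3, 87265182 to 87278380), held 117277, 84219.9, 124302 and 122811. Slc40a1, which encodes ferroportin, the known cellular iron exporter (chromosome 1, 45947211 to 45965683), held 112484, 100131, 111194 and 112189. Both were among the 20 genes with the most counts, at ranks 14 and 15. Spic, the ETS factor needed for heme-handling macrophages (chromosome 10, 88510629 to 88520960), held 10288, 8618, 9082 and 8831 and ranked 474. The markers differed in how tightly the samples sat together. Slc40a1 stayed within 1.12 times from lowest to highest sample and Vcam1 within 1.51 times. The other genes of the gate had 8497 ± 530.3 for Ptprc, which encodes CD45, and 2245 ± 338 for Itgam, which encodes CD11b. Because the cells were sorted on these proteins, the levels of Adgre1, Ptprc and Itgam describe the gate.

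The floxed gene itself, Xpr1 (chromosome 1, 155151407 to 155293181), was expressed at a moderate level in all 4 controls, with 1781, 1859.6, 2239 and 2047 normalized counts and rank 3184. Mrc1, which encodes the mannose receptor and supplies the Cre driver used elsewhere in the series (chromosome 2, 14234151 to 14336926), held 23440.4, 22144, 28348 and 24841 and ranked 102. Of the other genes of phosphate handling, the mitochondrial phosphate carrier Slc25a3 held 11643 ± 611. The phosphate importer Slc20a1 held 2521 ± 267 and Slc20a2 667 ± 64.9. Among the kinases that make the inositol pyrophosphates that XPR1 senses, Ip6k1 held 4008 ± 314, Ppip5k2 1512 ± 169, Ip6k2 563 ± 36.5 and Ppip5k1 401 ± 60.4. None of the 9 phosphate genes measured differed by over 2 times between samples. That held for 13.8% of all genes and for 5.51% of those with a mean of at least 50, so none of 9 is little apart from the rest.

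The promoter sequences of marker genes are shown to let the factors described below be set beside the DNA they are known to bind. Letters were searched in the 250 bases before the annotated start of each gene (GRCm39, GENCODE M39 canonical transcript), on both strands. The stretches below are 60 bases, read 5′ to 3′ on the strand of the gene, with the motif named beside each in capitals. Adgre1 held 2 overlapping matches to the interferon-stimulated response element. This motif was searched as 2 copies of GAAA with any 2 bases between them, and was present in 3.25% of 13032 promoters. Both Adgre1 matches lie in a stretch made almost wholly of A and G, and whether they act as a response element was not tested. Vcam1 held 2 matches to the AP-1 motif TGANTCA, present in 4.67%. C1qc, a subunit of complement C1q, held the PU.1 motif GAGGAAGT on the opposite strand, present in 2.31%. The Cd5l, Slc40a1, Spic and Timd4 windows held none of the 4 motifs searched, which says only that these letters are not in that window.
Adgre1, chr17:57665442-57665501, + strand: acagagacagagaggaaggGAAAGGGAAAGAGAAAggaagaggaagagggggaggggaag
Vcam1, chr3:115923538-115923597, - strand: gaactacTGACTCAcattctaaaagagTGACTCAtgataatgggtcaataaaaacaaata
C1qc, chr4:136620387-136620446, - strand: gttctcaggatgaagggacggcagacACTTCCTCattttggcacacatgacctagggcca

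Counts were spread over many genes. The 10 leading genes held 7.10 ± 0.503% of all normalized counts, the 20 leading 10.9 ± 0.809% and the 100 leading 23.1 ± 1.11%. Another way to say it is that 766 genes held 50% of the counts and 5220 genes held 90%. The median gene had a mean of 648 normalized counts, 5492 genes reached a mean of 1000, 418 reached 10000 and 16 reached 100000. Of all genes, 12867 had at least 10 normalized counts in each of the 4 controls. Protein-coding genes made up 13045 of the rows and pseudogenes 649. Most long noncoding RNAs were not analysed here.

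The gene with the most counts was mt-Co1, a mitochondrially encoded subunit of cytochrome c oxidase, with 495656, 376059, 315583 and 351934 normalized counts. Actb, encoding cytoplasmic beta-actin, followed with 258963, 237407, 224928 and 248085. Ftl1, encoding the light chain of the iron store ferritin, came next with 244210, 189959, 211597 and 197870. Their order was the same in each sample. Next were the lysosomal cysteine protease gene Ctsb with 197381 ± 16141 and the translation elongation factor gene Eef1a1 with 185865 ± 10869. Hba-a1 (157709 ± 30384), Hbb-bs (146176 ± 31578) and Hba-a2 (138070 ± 25884) are adult-type globin genes. The 2 alpha genes are near-identical copies, as are Hbb-bs and Hbb-bt, so how the reads were split between the copies is uncertain and the sums are safer than the single values.

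The lysosomal genes Psap (150725 ± 9412), which encodes the precursor of the saposins, and Ctsd (146237 ± 18484), an aspartic protease, stood beside Hmox1 in the ranking. Hmox1 encodes heme oxygenase 1, which opens the heme ring and frees its iron. It held 171574, 108473, 163723 and 158271 normalized counts, with control 2 the lowest. The list of 20 was completed by mt-Atp6, mt-Co2, mt-Cytb, mt-Co3 and mt-Nd4 of the respiratory chain, by Cd5l and Slc40a1, by the actin-binding Tmsb4x (108074 ± 12507) and by the ferritin heavy chain gene Fth1 (84312 ± 6238). Of the 20 leading genes, 16 were among the 20 leading in each of the 4 samples, and 27 genes entered the list of any sample.

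**Figure D1:**
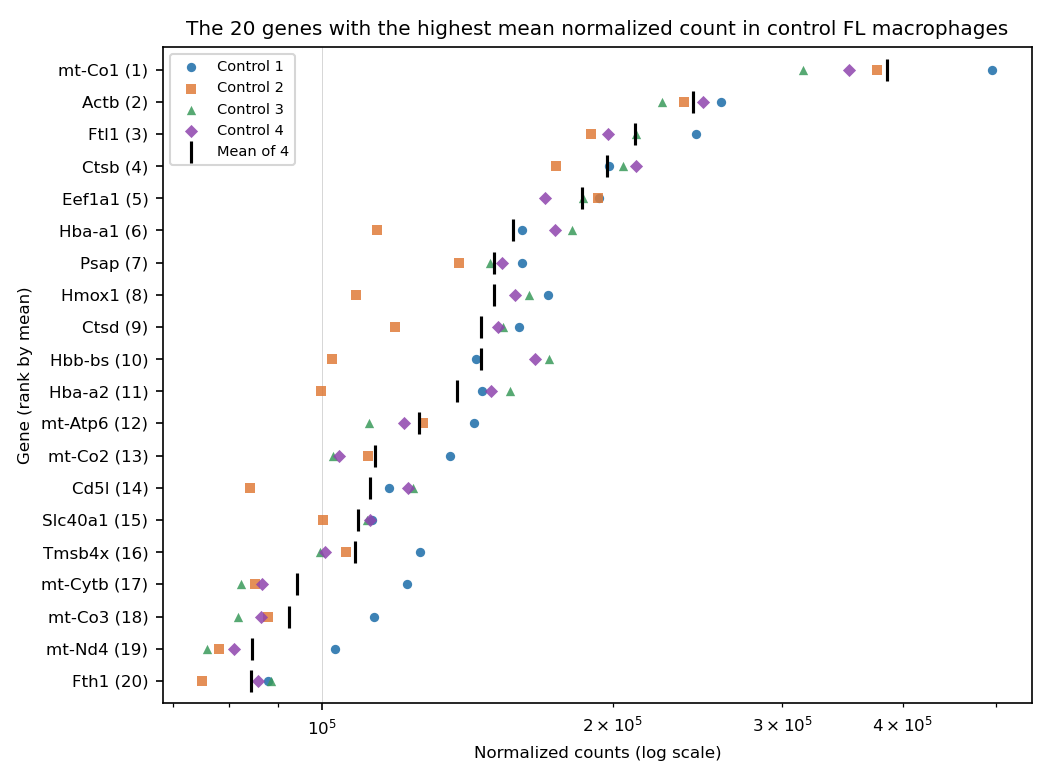
Normalized counts (log axis) of the 20 genes with the highest mean, ordered by rank, with 1 coloured point for each of the 4 control samples and a bar for their mean. mt-Co1 stood first in every sample, and control 2 was the lowest point for Hmox1, Cd5l and the 3 globin genes.

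Division by transcript length kept 16 of the 20 leading genes. mt-Co1 had the highest mean with 249067 ± 50464 normalized counts per kb, followed by Hbb-bs (220145 ± 47558), Ftl1 (217656 ± 24698), Hba-a1 (213697 ± 41171) and Hba-a2 (213400 ± 40006). The ranges of all 5 overlapped, so their order is not set by these samples. In controls 3 and 4, Hbb-bs, Hba-a1 and Hba-a2 stood above mt-Co1. The genes that entered were short. They were mt-Atp8, Hbb-bt, mt-Nd1 and Gm29216, an annotated pseudogene whose reads cannot be told apart with certainty from those of a similar gene. Ctsb, Psap, Cd5l and Slc40a1 moved to ranks 25, 21, 22 and 36 per kb.

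Sorted by class, the 68 lysosomal genes measured had the largest mean share of the counts among the lists drawn up, 4.48 ± 0.232%. They were followed by the 319 receptor genes (4.34 ± 0.251%), the 13 genes of the mitochondrial chromosome (4.01 ± 0.627%), 49 genes of the actin cytoskeleton (3.77 ± 0.141%) and 83 cytosolic ribosomal protein genes (3.74 ± 0.344%). The lysosomal range overlapped those of the receptor and mitochondrial shares, and in control 1 the mitochondrial share was the largest. Per kb the order was another, with 9.62% for mitochondrial, 7.80% for ribosomal protein and 3.76% for lysosomal genes. Genes of iron and heme handling, only 33 in number, held 2.79 ± 0.214%. The 334 transcription factor genes together held 2.17 ± 0.0367%, less than the iron genes. The share of the transcription factors was also the steadiest of these classes, from 2.11% in control 1 to 2.20% in control 4. Some genes stand in more than 1 list, so the shares do not add up.

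**Figure D2:**
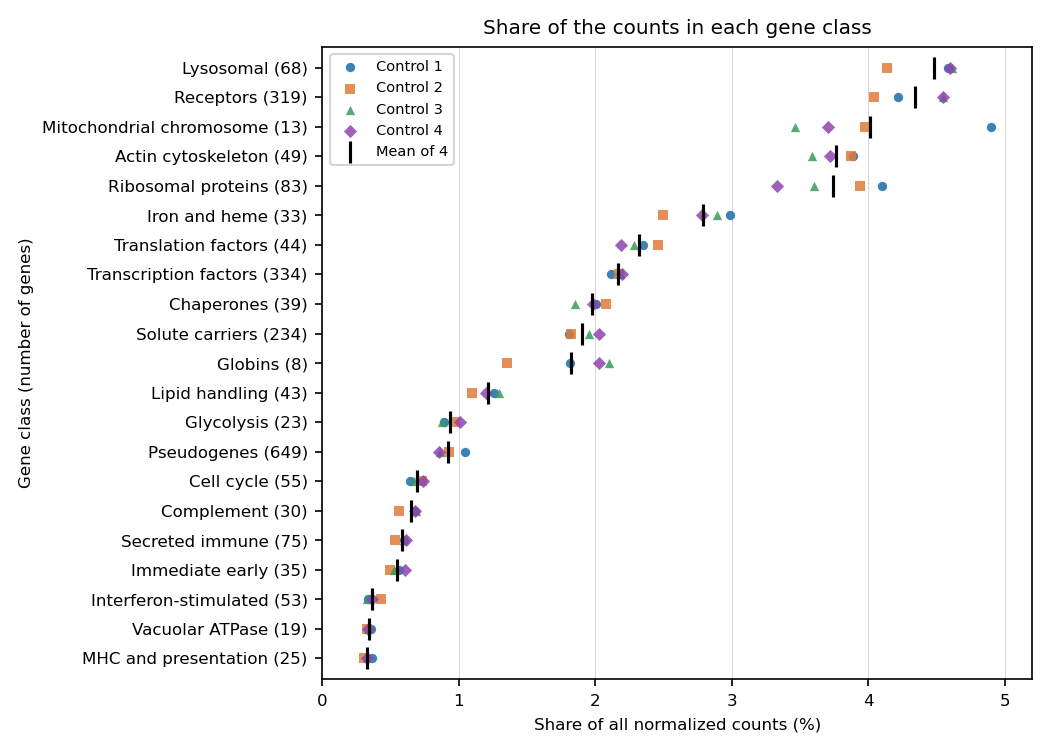
Share of all normalized counts (percent, linear axis from 0) held by each gene class, with the number of genes in parentheses, 1 point for each control sample and a bar for the mean. The lysosomal, receptor and mitochondrial classes had the largest mean shares, with overlapping ranges, and the mitochondrial points spread the widest, from 3.46% to 4.90%.

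Genes of iron and heme handling were measured along the known route. Heme import into the cytosol from the phagosome is served by Slc48a1, which held 14579 ± 1593. The lysosomal metal transporter gene Slc11a1 held 14319 ± 1116. Of the storage genes, Ftl1 had the most counts of the class, 210909 ± 23933, and Fth1 held 84312 ± 6238. The ferritin receptor of autophagy, Ncoa4, held 18228 ± 1508. Heme breakdown through Hmox1 stood at 150510 ± 28552 and export through Slc40a1 at 109000 ± 5938, both above Fth1 by mean count. Transferrin itself, Trf, held 38014, 27161, 38738 and 36807 and its receptor Tfrc 14846, 15204, 15092 and 19327. Control 2 was lowest for Trf, and control 4 highest for Tfrc. Of the 33 genes measured, 24 reached 1000 normalized counts in every sample (72.7%, against 37.5% of all genes). By over 2 times between samples 6 differed (18.2%), against 13.8% of all genes and 5.51% of those with a mean of at least 50. The hepcidin gene Hamp was not analysed here.

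Lysosomal genes were high as a group. Of 68 measured, 62 reached 1000 normalized counts in every control (91.2%, against 37.5% of all genes). Their median gene mean was 5986 against 649 over all genes and, per kb, 2048 against 193. None of the 68 differed by over 2 times between samples, against 5.51% of all genes with a mean of at least 50. Behind Ctsb, Psap and Ctsd came Lgmn, an asparagine endopeptidase, with 73249 ± 6149.6, and Grn, the progranulin gene, with 61903 ± 5373. The membrane protein gene Lamp1 held 50017 ± 2275, Ctsc 46034 ± 2844, Laptm5 36982 ± 2575, Lyz2 34247 ± 5681 and Ctsa 28712 ± 1678. Dnase2a encodes the acid nuclease that degrades the DNA of engulfed erythroblast nuclei, and held 6448, 5097, 6192 and 6157. The 19 vacuolar ATPase subunit genes, which acidify the lysosome, were led by Atp6v0c (18084 ± 1618), Atp6v1b2 (12286 ± 851) and Atp6ap1 (9524 ± 809). Of the 19, 16 reached 1000 in every sample (84.2%).

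The regulators of lysosome genes of the MiT/TFE family are known to bind the E-box CACGTG. It was present in 10 of 68 promoter windows of the lysosomal list (14.7%), against 7.6% of all 13032. Among the holders were Ctsd, Lamp1 and Dnase2a, whose stretches are shown with the E-box in capitals. Psap, whose window held an AP-1 motif in place of an E-box, is shown with that motif in capitals. Tfe3, a member of the family, held 2937 ± 117 normalized counts.
Ctsd, chr7:141941777-141941836, - strand: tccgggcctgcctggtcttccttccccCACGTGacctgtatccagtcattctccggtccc
Lamp1, chr8:13209061-13209120, + strand: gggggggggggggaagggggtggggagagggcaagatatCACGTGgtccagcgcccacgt
Dnase2a, chr8:85635094-85635153, + strand: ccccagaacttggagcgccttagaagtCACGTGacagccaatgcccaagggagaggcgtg
Psap, chr10:60113384-60113443, + strand: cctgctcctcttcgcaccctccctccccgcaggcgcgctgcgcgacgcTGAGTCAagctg

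The classical complement genes were among the high secreted products. C1qc held 54996, 40916, 51894 and 53306, C1qb 49676, 40379, 46392 and 46786 and C1qa 36396, 27854, 36136 and 37096, and Cfp, encoding properdin, held 28948 ± 3467. Per kb the order changed. C1qa (31619.5 ± 4014) and C1qc (27148 ± 3439) overlapped in range and both stood above C1qb (18092 ± 1542). The central complement component gene C3 held 3134 ± 739.7. Of 30 complement and coagulation genes measured, 11 reached 1000 in every sample (36.7%), a share close to the 37.5% of all genes.

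Among 75 measured genes for chemokines, cytokines and growth factors, 15 reached 1000 in every sample (20%, against 37.5% of all genes). The highest after Grn were Il18bp, which encodes a decoy for interleukin 18, with 13914, 9462, 16902 and 14921, the semaphorin Sema6d with 12556 ± 1233, Igf1 with 12421 ± 869 and Tgfb1 with 10378 ± 349. Lgals3 held 9028 ± 818, Igf2 4746 ± 917, Ccl6 4276 ± 599.8, Ccl24 4154 ± 758 and Il1a 3487 ± 233. Of other cytokine genes, Il18 held 2852 ± 285, Il1b 500.0 ± 145, Tnf 283 ± 55.0 and Il10 59.4 ± 14. These 4 were named after their values were seen.

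In antigen presentation, the class I genes B2m (31008 ± 2504), H2-D1 (22795 ± 3565) and H2-K1 (12555 ± 2212) were high. The class II genes held 174, 103, 389 and 41.3 for H2-Aa, 151, 139, 343 and 56.8 for H2-Ab1 and 654, 495, 1038 and 267 for the invariant chain Cd74. For each of these class II genes control 3 was highest and control 4 lowest. The same controls were highest and lowest in the summed granulocyte, lymphoid, monocyte, dendritic and stem and progenitor markers. The dendritic list holds these class II genes itself. The part of any of these cells in the class II values was not tested.

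Lipid genes were led by Apoe, with 96279.6, 63644, 90417 and 71785, Lrp1 (52143 ± 5714), a receptor for lipoprotein remnants, Lpl (35591 ± 1769), which encodes lipoprotein lipase, and the cholesterol exporter Abca1 (21324 ± 3546). The lysosomal acid lipase Lipa held 18032 ± 1310.3, the cholesterol carrier Npc2 14995 ± 1339.8, Abcg1 10903 ± 829 and Pltp 8222 ± 2044. The glycolytic genes were led by Gapdh (68779.7 ± 4148), Pkm (36204 ± 3958), Eno1 (29936 ± 2433), Aldoa (23876 ± 1426) and Ldha (20363 ± 2037). Hk3 held 7827 ± 263. Of the 23 glycolytic genes measured none differed by over 2 times between samples, against 5.51% of all genes with a mean of at least 50.

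Solute carriers contributed 234 genes, of which 84 reached 1000 in every sample (35.9%, close to the 37.5% of all genes). After Slc40a1 the highest was Slc4a1 with 22129, 21071, 33064 and 32433, the band 3 anion exchanger of red cells. Slc25a37, the mitochondrial iron importer of erythroblasts, held 13763, 13395, 17493 and 20150.2. These 2 are erythroid genes, and each was lower in controls 1 and 2 than in controls 3 and 4. The amino acid transporter genes Slc7a8 (18241 ± 2127), Slc43a2 (14689.9 ± 1699.9) and Slc3a2 (12322 ± 1127), the adenine nucleotide carrier Slc25a5 (16187 ± 879.5) and the lysosomal Slc15a3 (12696 ± 1162) completed the 10 highest together with Slc48a1 and Slc11a1.

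Of 369 transcription factor genes listed, 334 were measured. Of these, 321 had at least 10 normalized counts in every control, as did 12867 of all 13708 genes. The median mean of the 334 was 995, against 649 over all genes. In every sample 155 reached 1000 (46.4%, against 37.5% of all genes). The highest by count was Fos with 22269, 20158, 21259 and 23528, followed by Zfp36 with 20490.4, 17198, 18162 and 18869.6. Zfp36 stands in the zinc finger list, and its product tristetraprolin is known to bind mRNA rather than DNA. The nuclear receptor gene Rxra held 16991, 16116, 16342 and 16262, and the large Maf factor gene Maf 16989, 15934, 15354 and 14911. Rxra varied little, with an SD of 0.034 on the log2 scale.

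Per kb the first 3 places, Fos (10314 ± 679.6), Zfp36 (6619 ± 492) and Spic (5221 ± 423), were each separated from the next without overlap of the 4 samples. From the fourth place on, neighbours overlapped. Among them were Hmga1 (4443 ± 275), Id2 (4299.6 ± 410.1), Maf (3982 ± 226), Jun (3840.2 ± 819) and Nr1h3 (3711 ± 185). Spic, at rank 474 by count, thus stood above Maf per kb. Junb, Rxra, Irf5, Jund, Egr1, Id3, Atf4, Xbp1, Fosb, Klf2 and Pou2f2 followed, between 3129 and 2092 normalized counts per kb.

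**Figure D3:**
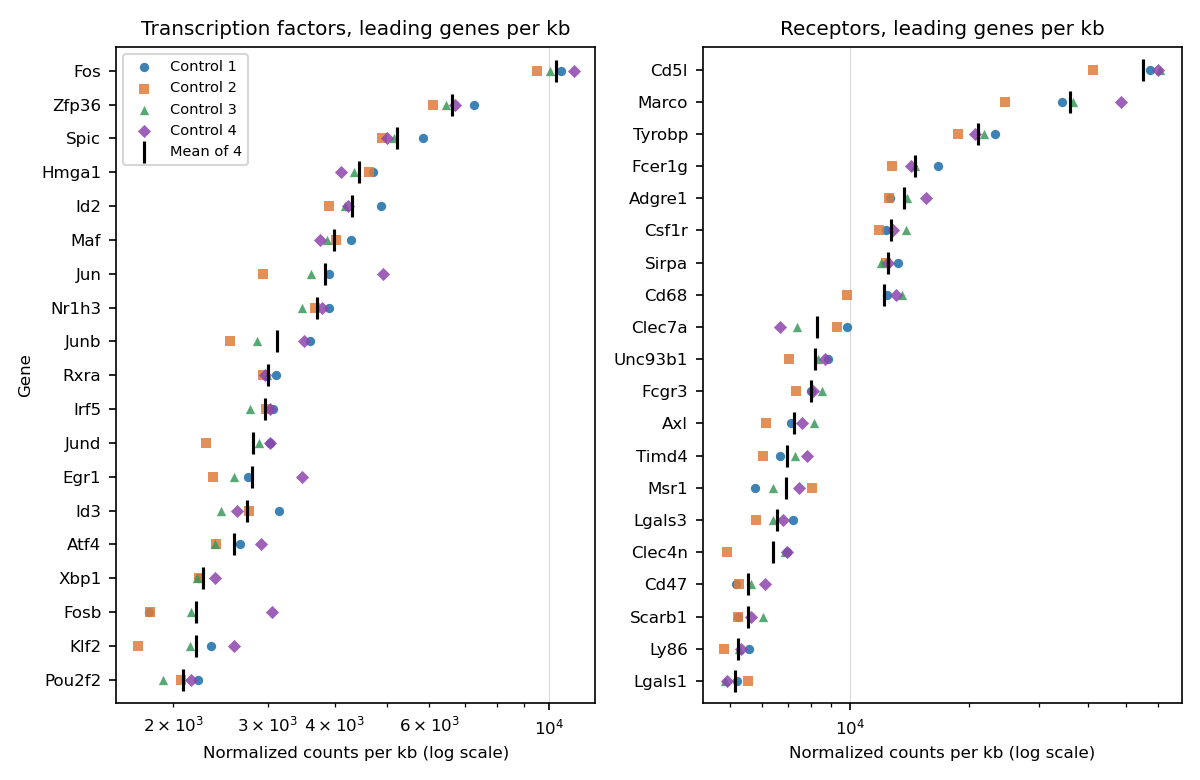
Normalized counts per kb of canonical transcript (log axis) of leading transcription factor genes (left) and receptor genes (right), ordered by their mean per kb, 1 point for each control sample and a bar for the mean. Fos and Zfp36 stood apart from the factors below them. Spic stood apart from the next factor, though its range overlapped that of Jun. Cd5l and Marco led the receptors.

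By family, 46 basic leucine zipper genes were measured and 29 reached 1000 in every sample (63%, against 37.5% of all genes). This family had the highest summed level of the 8. Beside Fos, Jun and Maf it held Fosb (6817, 6864, 8166 and 11579), Junb (5661 ± 912), Jund (4695 ± 577), Atf4 (4516 ± 434), Xbp1 (4476 ± 162) and Nfe2l1 (3859 ± 418). Bach1, which is known to repress Hmox1 until heme binds it, held 2754 ± 109 and was named after its value was seen. In the ETS family, 12 of 19 reached 1000 (63.2%). Spic was followed by Elf4 (4987 ± 205), Etv5 (3391 ± 103) and Spi1 (3473, 3457, 3506 and 3030.5), which encodes PU.1, the factor that sets macrophage identity. Per kb Spic stood at 5221 and Spi1 at 1655, with no overlap.

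Nuclear receptors were led by Rxra and Nr1h3 (8283, 7812, 7360.4 and 8031), its heterodimer partner LXR alpha. Nr3c1 held 3335 ± 130.2, Nr4a1 2404 ± 279 and Nr1h2 1999 ± 163. Below these the family fell away, and 8 of 30 measured genes reached 1000 in every sample (26.7%, against 37.5% of all genes). All 25 genes of the IRF, STAT, NF-kB and NFAT families were measured and 17 reached 1000 (68%). Irf5 (6488 ± 279) and Irf8 (6386 ± 432) led, with Stat6 (5507 ± 428), Irf7 (3284, 4510.4, 2569.8 and 3308) and Nfkb1 (3386 ± 237) below them. Control 2 was highest for Irf7, a known interferon-stimulated gene.

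Among KLF, SP, EGR, GATA and RUNX genes, Egr1 (12391, 10689.5, 11694 and 15597), Klf6 (8516 ± 727), Klf2 (4406 ± 742) and Klf3 (4381 ± 523) were highest. The Id genes, whose products block basic helix-loop-helix factors, were led by Id2 (10590.0 ± 1010.2), with Id3 at 3517 ± 375 and Id1 at 2102 ± 163. In that list Srebf1 held 3333 ± 288, Max 3129 ± 225 and Myc 2532 ± 189. Mef2a (4242 ± 204), Tcf7l2 (3971 ± 154), E2f4 (3825 ± 301) and Foxo3 (3302 ± 381) led the MEF2, SMAD, TCF, FOX and E2F list. Among the remaining classes Zeb2 (8186 ± 607), which supports Kupffer cell identity, Hmga1 (7659 ± 474), Hmgb2 (6396 ± 218) and Ikzf1 (5838 ± 643) were highest after Zfp36.

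Immediate early genes took a large place among the factors. Fos, Egr1, Jun, Fosb, Junb, Klf6 and Zfp36 all stood in the 20 highest by count, and Dusp1 (12729 ± 970.2), Btg2 (6411 ± 801) and Ppp1r15a (5219.6 ± 1260.2) stood among the 10 highest of the immediate early list. These genes are also known to be induced while tissue is dissociated and sorted. The samples hold no library made without those steps, so induction in the liver and induction during preparation cannot be told apart. Of the 35 genes measured, 20 were highest in control 1 and 12 in control 4, and 20 were lowest in control 2, against 27.0%, 27.5% and 25% of all genes with a mean of at least 50. Fosb and Jun were highest in control 4.

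Of 365 receptor genes listed, 319 were measured. Of these, 303 had at least 10 normalized counts in every control, as did 12867 of all 13708 genes. The list includes soluble members of receptor families and signalling adaptors. After Cd5l the highest by count was Csf1r, the receptor for the growth factors on which macrophages depend, with 74698, 71872, 84135 and 77705. Marco, a collagenous scavenger receptor, held 66312, 47462, 70758 and 93239, a range of about 1.96 times with control 4 highest. Sirpa, the inhibitory receptor for CD47, held 60360.1, 56453, 54809 and 57198 and was the steadiest of the 5 leaders. Lrp1, the receptor for many ligands that include hemopexin-bound heme, held 58955, 45181, 53456 and 50981.

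Per kb the order was Cd5l (54923 ± 9239), Marco (36074 ± 9769) and the adaptor genes Tyrobp (21139 ± 1898) and Fcer1g (14602 ± 1628), then Adgre1 (13709 ± 1415), Csf1r (12746 ± 869), Sirpa (12528 ± 509.9) and Cd68 (12227 ± 1654). Cd5l was above Marco in each of the 4 samples, although their ranges overlapped. Marco was above Tyrobp, and Tyrobp above Fcer1g, without overlap. From Fcer1g on, each neighbour overlapped the next. Lrp1, a very long transcript, moved from the fifth place by count to 30 per kb.

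Receptors for dead cells held a median gene mean of 5343, above that of any other receptor list, and per kb 1105, also the highest of them. Beside Sirpa and Lrp1 the list was led by Axl (33102, 28496, 37712 and 35173), Timd4, Scarb1 (14054 ± 996), Mertk (12974, 12662, 15141 and 14352), Scarb2 (11831 ± 968), Stab1 (8746, 8939, 12746 and 14791), Itgb5 (11016 ± 982) and Cd300a (10759.7 ± 777). Axl and Mertk bind dead cells through bridging proteins, whereas Tim4 and Stab1 bind phosphatidylserine directly. Per kb, Axl (7238 ± 840.0) and Timd4 (6953 ± 775) overlapped in range and Mertk (2960.1 ± 250.4) was lower than both. None of the 26 genes measured differed by over 2 times between samples, against 13.8% of all genes and 5.51% of those with a mean of at least 50.

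Scavenger, lectin and Siglec receptors had 11 of 44 members that differed by over 2 times (25%). The share was 13.8% of all genes and 5.51% of those with a mean of at least 50. Mrc1, Cd44 (19873 ± 1561), Cd68 (14648 ± 1981), Siglec1 (8129, 10196, 11591 and 13592), Msr1 (9849 ± 1466), Clec4n (7972 ± 1251) and Clec4a1 (7669 ± 541) were among the 10 highest. Siglec1 encodes the sialoadhesin of macrophages that contact erythroblasts, and it was lowest in control 1. Of the Fc, complement and immunoglobulin-like receptors, Itgal led with 23692, 27779, 24268 and 26556, and Fcgr3 (12309 ± 762), Fcgrt (11370.2 ± 1578), Cd86 (10024 ± 1253), Fcgr1 (6521 ± 410.3) and Itgb2 (5478 ± 718) were high. The first, Itgal, encodes the alpha chain that pairs with the product of Itgb2 in LFA-1.

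All 32 genes of pattern recognition were measured at 10 or more in every sample, as were 12867 of all 13708 genes. Of the 32, 16 reached 1000 in every sample (50%, against 37.5% of all genes). Unc93b1, the chaperone of nucleic acid-sensing Toll-like receptors, led with 18579 ± 1844. Tlr4 held 5429 ± 569, Nod1 4741 ± 123, Tlr2 3708 ± 134, Tlr7 3389 ± 189, Tlr1 3109 ± 191, Tlr13 2348 ± 312 and Tlr8 1679.5 ± 237. Toll-like receptors of the surface and of endosomes thus both appeared among the highest. After Csf1r, the list of cytokine and growth factor receptors was led by the plexin gene Plxnb2 (27194 ± 3052). Csf2rb (11284 ± 1059), Ifngr1 (8144 ± 492), Tnfrsf1b (7601 ± 646), Tnfrsf1a (6817 ± 278), Il10rb (5947 ± 475) and Ifnar2 (5921 ± 370.1) stood below it.

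G protein-coupled receptors were the sparsest receptor list. Of 75 measured genes 15 reached 1000 in every sample (20%, against 37.5% of all genes), with a median gene mean of 182. Below Adgre1 stood Adgre5 (12618 ± 747), the fractalkine receptor Cx3cr1 (5827, 7204, 6546 and 6566), Cmklr1 (5643 ± 792), P2ry13 (5318 ± 817), Adgre4 (4509 ± 539), Gpr65 (3855 ± 275) and P2ry6 (3286 ± 198). The chemokine receptor Ccr2 of monocytes held 744, 835, 989.9 and 414, with control 4 lowest.

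Genes of the general machinery were abundant and steady. All 49 actin cytoskeleton genes, 44 translation factor genes and 39 chaperone genes stayed within 2 times between samples. Of all genes with a mean of at least 50, 5.51% did not. In the first list Actg1 held 78850.5 ± 4127, Cfl1 46027 ± 1526, Lcp1 38675 ± 609, Pfn1 37839 ± 2377 and Flna 28861 ± 1899. In the second Eef2 held 61424 ± 2940.2 and Pabpc1 42296 ± 1665. In the third Hspa8 held 75478 ± 3799, Hsp90ab1 58752 ± 2575 and Calr 43709 ± 2700.1. The ribosomal protein genes were led by Rpsa (44349 ± 4118), Rps2 (41268 ± 3435) and Rpl4 (35874 ± 2754).

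Proliferation genes were present throughout. All 55 S, G2 and M phase genes had at least 10 normalized counts in every sample, as did 12867 of all 13708 genes. Of the 55, 48 reached 1000 in every sample (87.3%, against 37.5% of all genes). They were led by Mki67 (16128, 20031, 21048 and 22999.5), Top2a (9857, 10101, 9695 and 10856) and Pcna (9329.8 ± 283). Mki67 was lowest in control 1 and highest in control 4. Which cells carried these transcripts cannot be read from bulk RNA. Of 28 imprinted and fetal-type genes measured, Gnas (15818 ± 1458) was highest, followed by Igf2 (4746 ± 917), the RNA-binding Igf2bp3 (4051 ± 344), Igf2r (2668 ± 509) and Igf2bp1 (2070.0 ± 321).

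Markers of other cells of the fetal liver were measured beside those of macrophages. In bulk samples fewer cells of a type and less RNA per cell cannot be told apart. The 16 pan-macrophage markers all reached 1000 in every control and summed to between 404682 and 479117 normalized counts. The 24 Kupffer cell markers summed to between 533647 and 724936, and 19 of them reached 1000 in every control (79.2%, against 37.5% of all genes). Vsig4, which the study counts among fetal liver and Kupffer cell identity genes, held 367, 240.2, 769 and 566. Cd163 held 230.1, 322, 573 and 401. The study describes its protein as high on erythroblastic island macrophages, in an account of adult bone marrow, whereas these values are RNA of E15.5 liver. Cd163 is 1 of 16 island macrophage markers and was not among the 15 that reached 1000 in every control. Clec4f held 7175, 4687, 9039 and 8735 and the endothelial cadherin gene Cdh5, also known in Kupffer cells, 15352, 16085, 19876 and 21805.

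Erythroid RNA was the largest other signal. The 34 erythroid markers summed to 614454, 456843, 719081 and 701159, and the 8 globin genes held 1.81%, 1.35%, 2.10% and 2.03% of the counts. Alas2, of heme synthesis in red cells, held 5953, 4736, 8893 and 7769.6, and the erythroid factors Klf1 1422, 1197, 1523 and 1460.5 and Gata1 907, 886, 1003 and 1119.9. Klf1 also stands in the island macrophage list, so its counts cannot be assigned to erythroid cells alone. The embryonic globin genes Hbb-y (2622, 1871, 1530.3 and 2847) and Hba-x (1054, 728, 876 and 1222) were below the adult ones, per kb at 3504 ± 979 and 1211 ± 267. Control 2 was lowest for 27 of the 34 markers, whereas it was lowest for 24.9% of all genes.

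Hepatocyte markers were led by Trf, which macrophages also express, and then by Alb (14866, 14149.8, 16890.3 and 29386) and Afp (12321, 12189.7, 11650.5 and 23242). Control 4 was highest for 27 of 29, against 27.5% of all genes with a mean of at least 50, and for Alb and Afp it stood well above the 3 others. Of 22 endothelial markers 2 reached 1000 in every sample (9.09%, against 37.5% of all genes). These were Stab2 (8125 ± 833) and Pecam1 (1976 ± 311), and Kdr held 484, 429.7, 759.9 and 175. Of 20 megakaryocyte markers 2 did (10%), Clec1b (5363, 3605, 5225 and 5096) and Pf4 (1777 ± 217), and Itga2b held 283 ± 29.8. Clec1b also stands in the scavenger and lectin receptor list, and which cells carried its transcripts cannot be read from bulk RNA. The progenitor genes Kit and Cd34 held 613 ± 152 and 705 ± 155. Of the B-lineage genes Cd79b held 1488 ± 145, Pax5 179 ± 98.3 and Cd79a 118 ± 60.7. Of 28 lymphoid markers 13, among them Cd3e and Ncr1, were not analysed here. None of the 7 mast cell markers reached 1000 in every sample. They ran from Mitf (817 ± 93.2) and Kit, which other cells also express, to Cpa3 (54.7 ± 22.5), the mast cell carboxypeptidase, and Ms4a2 (29.6 ± 8.56).

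**Figure D4:**
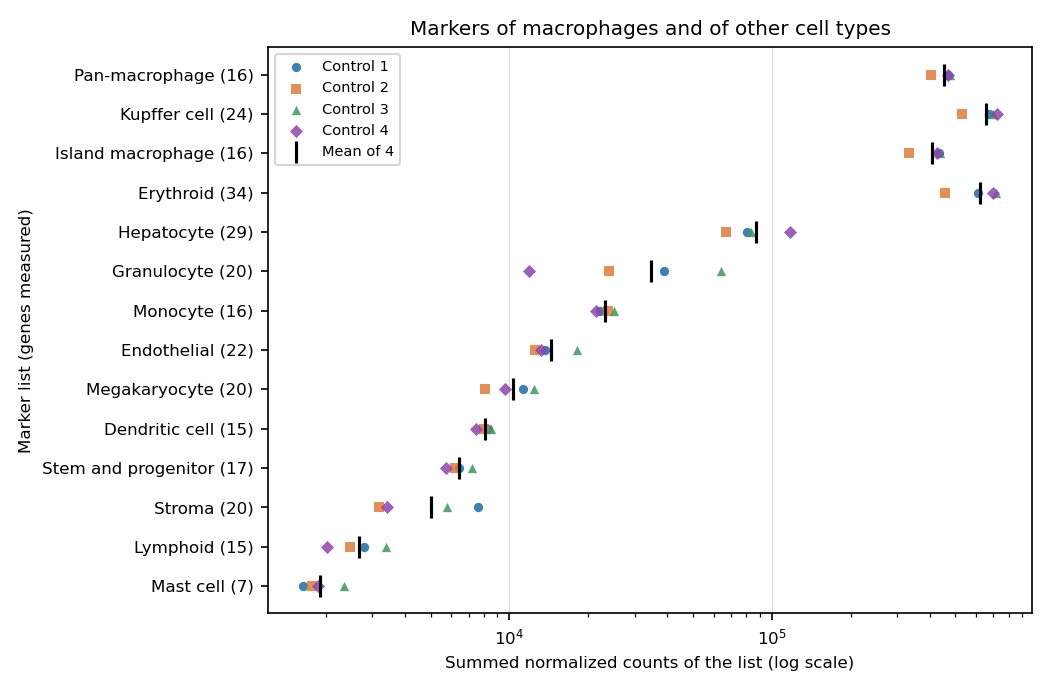
Summed normalized counts (log axis) of each marker list, with the number of genes measured in parentheses, 1 point for each control sample and a bar for the mean. The 3 macrophage lists and the erythroid list lay highest, and the granulocyte list spread the widest, from 11841 in control 4 to 63895 in control 3.

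The 4 samples were close for most genes. Over the 11563 genes with a mean of at least 50, the median SD of log2(normalized count + 1) was 0.127 and the median CV was 8.79%. The highest sample was under 1.1 times the lowest for 1521 genes (13.2%), over 1.5 times for 1866 (16.1%) and over 2 times for 637 (5.51%). An SD above 0.5 was found for 490 genes (4.24%). Without control 3 or control 4 the count over 2 times fell to 417 or 376, with 3 samples in place of 4. The spread went with the level. The median CV was 19% for the 1951 genes with means from 50 to 200, 9.41% from 200 to 1000, 6.87% from 1000 to 5000 and 6.65% from 5000 to 20000. Above 20000 it was 8.18%, in 145 genes.

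**Figure D5:**
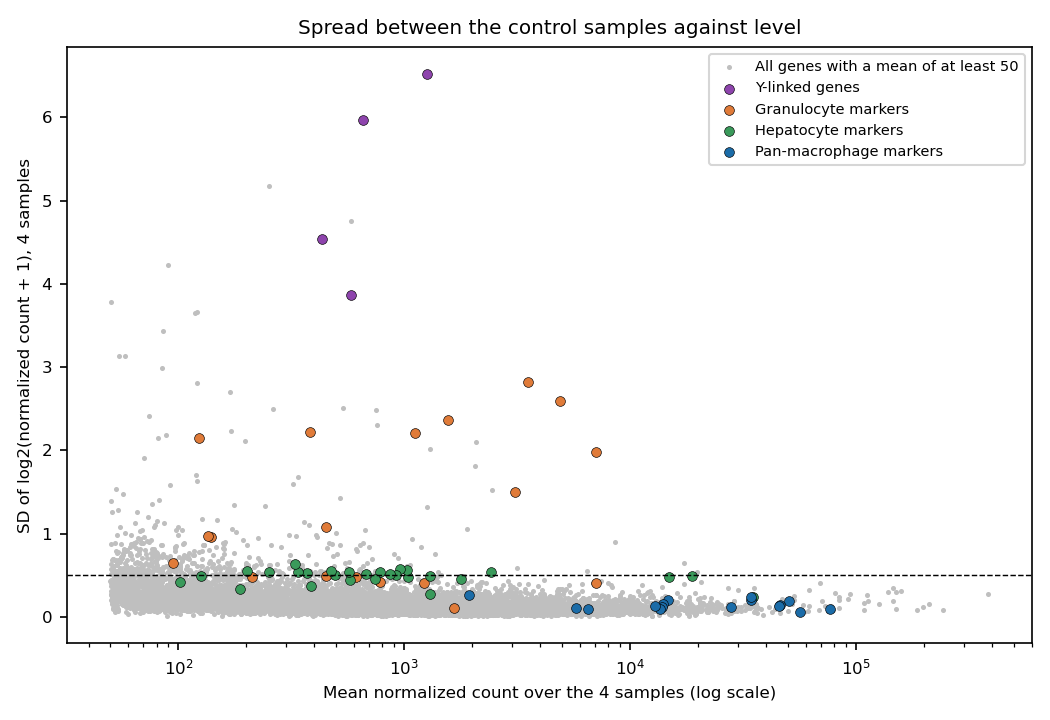
SD of log2(normalized count + 1) over the 4 control samples (vertical axis) against the mean normalized count (log axis), 1 point per gene with a mean of at least 50; the dashed line marks an SD of 0.5. Y-linked genes and most granulocyte markers lie above the line, and the pan-macrophage markers lie below it.

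Among genes with a mean of at least 1000, the smallest spread was that of Hacd3, an enzyme of very long fatty acid synthesis, with 2239, 2245, 2226 and 2226. Irag2 (4139, 4152, 4108 and 4126), the phosphatase subunit Ppp2ca (6578, 6615, 6590.4 and 6650.2), the glycolytic Gpi1 (12587, 12451, 12569 and 12503) and Nf2 (1801, 1809.8, 1823 and 1812) followed. Usp15, Gng12, Anxa7, Mkln1 and Cdk16 completed the 10, with SDs of log2 from 0.0084 to 0.0098.

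The largest spreads came from Y-linked genes. Ddx3y held 0, 0, 2419.9 and 2602, Eif2s3y 0, 0, 1515 and 1110.3, Uty 1.54, 4.76, 869 and 858 and Kdm5d 9.19, 11.4, 1129.8 and 1183. They were at or near 0 in controls 1 and 2 and present in controls 3 and 4. The Y-linked genes differ with the sex of the embryos in a sample. Sex was not among the groups given, and its part in other differences between controls was not tested. Several of the next genes, Rps13-ps2 (0, 0, 592 and 419), Gm10359 (0, 1531, 79.1 and 718), Rps13-ps1, Gm6565 and Gm6158, are pseudogenes that share reads with a parent gene, and their values are uncertain. Zfp968, Gm14288, Ndor1 and Kpna2rt also had a 0 in at least 1 sample.

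The remaining genes of the 20 were Chil3 (90.4, 25.4, 223 and 0.914), Ltf (4876, 1136, 8013 and 102), Csta2, Chi3l1, Ngp (6568, 1837, 10998 and 193), Stfa2 and Cd177. Ltf and Ngp encode granule proteins of neutrophils. They were highest in control 3, then in controls 1, 2 and 4. Of the 100 genes with the largest spread 49 followed this order, against 3.50% of all genes with a mean of at least 50. Of the 20 granulocyte markers 11 followed it. S100a9 held 9514, 4000.2, 14013 and 637, S100a8 3408, 2032, 6381 and 548, Lcn2 1999, 679, 3489 and 84.0 and Camp 1495, 614, 2288 and 72.3. The sum of the 20 granulocyte markers was 38698, 23998, 63895 and 11841 normalized counts, a range of 5.40 times, with all 20 highest in control 3. Early granule genes ranged less and ran in another order, with 5254, 7719.5, 9596 and 5707 for Mpo and 587, 847, 1081 and 617 for Elane, and Ly6g, which defines mature neutrophils, held 39.3, 28.8, 70.5 and 0.960.

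Each control had a profile of its own beyond these genes. By a difference of over 1.5 times from all 3 others, 168 genes stood apart in control 1, 78 in control 2, 198 in control 3 and 263 in control 4. In control 1 all 13 mitochondrial genes and 73 of 83 ribosomal protein genes were highest, whereas 27.0% of all genes with a mean of at least 50 were highest there. The mitochondrial share was 4.90%, 3.98%, 3.46% and 3.71%, and the ribosomal protein share 4.10%, 3.94%, 3.60% and 3.33%. Control 1 also had the lowest estimated depth, and the part of depth was not tested. Collagen genes were highest there, with 1890.2, 629.5, 1336 and 469.9 for Col1a1 and 2111, 547, 1275 and 797 for Col3a1, and 14 of 20 stromal markers were highest in control 1.

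Control 2 was low for the genes that mark the cells. It was the lowest sample for 14 of 16 pan-macrophage markers, 16 of 24 Kupffer cell markers, 49 of 68 lysosomal genes and 15 of 30 complement genes, against 25% of all genes with a mean of at least 50. These lists share members, among them C1qa, Cd68 and Lyz2, so their counts are not independent. The pan-macrophage sum in control 2 was 404682 against 468515 to 479117 in the others. The Kupffer cell sum was 533647 against 673144 to 724936, and the island macrophage sum 335210 against 425704 to 439629. Erythroid and hepatocyte markers were lowest there as well, in 27 of 34 and 21 of 29 genes.

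Interferon-stimulated genes went the other way. Control 2 was highest for 38 of 53, against 21.9% of all genes with a mean of at least 50, and control 3 lowest for 33 of 53, against 21.0%. Oasl2 held 913, 1801, 635 and 907, Mx1 458, 738, 455 and 382, Oas3 333, 543, 232 and 276, Isg15 552, 685, 327 and 552 and Slfn5 3189, 4719.7, 3353 and 3346. The summed level was 95607, 116209, 91244 and 102358 normalized counts, a range of 1.27 times. All 53 genes had at least 10 normalized counts in every control, as did 12867 of all 13708 genes. Of the 53, 26 reached 1000 in every control (49.1%, against 37.5% of all genes). Samhd1 (10547 ± 490.2) and Helz2 (9768 ± 1319) led the list. The response element was present in 23 of 53 windows (43.4%), against 3.25% of all. The Isg15 stretch held 3 overlapping matches and the Oas3 stretch 1, both shown in capitals.
Isg15, chr4:156285307-156285366, - strand: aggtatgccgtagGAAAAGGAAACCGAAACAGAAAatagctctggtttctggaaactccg
Oas3, chr5:120915765-120915824, - strand: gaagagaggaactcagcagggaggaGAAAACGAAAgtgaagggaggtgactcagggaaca

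In control 3, beside the granulocyte genes, 19 of 22 endothelial, 12 of 15 lymphoid and all 7 mast cell markers were highest, whereas 24 of 39 chaperone genes were lowest. Of all genes with a mean of at least 50, 23.6% were highest and 21.0% lowest in control 3. Lyve1 held 533, 518, 1036 and 544. In control 4, 27 of 29 hepatocyte markers, 16 of 23 glycolytic genes and 31 of 55 cell cycle genes were highest, and 70 of 83 ribosomal protein genes were lowest. For comparison, 27.5% of all genes with a mean of at least 50 were highest and 21.3% lowest in control 4. Cd209f, a lectin gene, held 169, 137, 346 and 788. Control 4 was also the sample with the other date in its column header, and with 1 sample of that date the sample and the date cannot be told apart.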

How the data were processed

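RNA-seq of sorted E15.5 FL macrophages was analysed from 1 table of 13708 genes and 9 samples, of which the 4 columns labelled Xpr1fl/fl were used. The authors checked reads of stranded mRNA libraries with FastQC, quantified them with salmon on GRCm39, imported them with tximport and normalized them with DESeq2. The tool versions are not given in the sources used here. The deposited values are a signal made by the authors from estimated read counts divided by normalization factors, so they are not whole. 18.1% to 34.3% of low values lay near whole multiples of a spacing, against 10% by chance, and whole reads were not recovered. The lowest mean over the 9 samples was 5.79, so genes below some level had been removed by the authors.

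Gene symbols, positions and canonical transcript lengths came from GENCODE M39 on GRCm39. 13698 of the 13708 identifiers had a symbol, and for 5 symbols used by more than 1 gene the highest row was kept in lists. Means, SDs, ranks and class shares were computed with Python 3.11.15 and pandas 2.3.3. Spread is the SD of log2(value + 1), a pseudocount of 1, over the 4 samples for genes with a mean of at least 50. Detection was set at 10 normalized counts in every sample. The ranking, share and spread steps were tested on simulated data. No group was compared and no p-value was computed.

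Genes were named by a rule: the 6 markers, Xpr1 and Mrc1, the 20 highest by count and per kb, the 10 highest of each list, the 20 highest transcription factors and receptors, the 10 highest solute carriers, the 20 largest and 10 smallest spreads, and defining markers of other cells. Some genes that this rule names are not reported here. The members and lists were chosen with earlier results of these data known. Alternatives were the scale per kb, the median, 75th percentile and quantile scaling, other pseudocounts and filters, the CV, and leaving out each sample.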

Additional observations from a re-analysis of the deposited data

Results flagged for a closer look

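With 4 samples, a value was set apart when its gap to the nearest other sample as a share of the whole range exceeded Dixon's 95% limit. It was applied to 294 sets of 4 values, the genes given with values, the class shares and the summed marker lists, and 23 had a sample apart. Chance gives about 1 in 20, and genes of one list are not independent, so the single cases carry little weight.

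Control 2 was the sample apart, on the low side, in 12 of the 23. It held 27854 normalized counts of C1qa against 36136 to 37096 in the others, 23759 of Cfp against 30369 to 30915, 3384 of Ccl6, 3605 of Clec1b, 6097 of Clec4n, 100131 of Slc40a1, 6400.5 of Tnfrsf1a and 27161 of Trf. Its lysosomal share was 4.14% against 4.59% to 4.61%, and its complement share 0.563% against 0.678% to 0.684%. The pan-macrophage markers summed to 404682 there and the island macrophage markers to 335210. On the high side control 2 stood apart for the interferon-stimulated gene Slfn5, with 4720 against 3189 to 3353.

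Control 4 stood apart for Afp, the alpha-fetoprotein gene of hepatoblasts, with 23242 normalized counts against 11651 to 12321. It also did for Tfrc (19327 against 14847 to 15204), Slc20a2 (764), Spi1 (3030.5, below 3457 to 3506) and Xbp1 (4717). Control 1 stood apart for Atp6v1b2 (13549), Csf2rb (9713) and Tlr8 (1325), and control 3 for Ifngr1 (8881) and the endothelial gene Lyve1 (1036 against 518 to 544). What set these samples apart was not tested.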

How the results depend on the processing

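Scaling to the 75th percentile shifted no sample by over 0.0223 on the log2 scale. Of 133 alternative values 120 stayed within their limits, among them all 49 for single genes and the leading list. Per kb, the class shares were 9.62% for mitochondrial genes, 7.80% for ribosomal proteins, 5.88% for globins, 4.37% for actin cytoskeleton genes, 3.99% for iron and heme genes and 3.76% for lysosomal genes, since short transcripts weigh more; the order of classes therefore rests on the scale. Without mitochondrial genes in the total the actin cytoskeleton share was 3.93%. Without a filter on the mean, 1488 genes had an SD over 0.5 and 1897 differed by over 2 times, against 140 and 189 with a mean of at least 200. Leaving out 1 sample in turn gave 410 to 566 and 376 to 522 genes, 19 to 20 of the 20 leading genes, 322 to 325 transcription factors and 303 to 310 receptors. By class it gave 3.71% to 4.19% (mitochondrial), 3.62% to 3.88% (ribosomal), 1.73% to 1.98% (globins), 4.44% to 4.6% (lysosomal), 2.72% to 2.89% (iron and heme) and 3.73% to 3.83% (cytoskeleton). Per kb by the joined length of all exons, an alternative chosen after seeing the data, 17 of the 20 leading genes were shared. No paired analysis was possible because the result comes from no test between groups.

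Reads per gene were not recoverable as whole numbers, so no counting interval is given, and depth limits the genes of low level, where the median CV was 19%.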

Other observations

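Marker lists that the account above touched only in passing were measured as follows. Of the 16 monocyte markers, Ms4a6c held 3468 ± 137 normalized counts, Plac8 3305 ± 566, F13a1 1671 ± 366 and Fn1 1152 ± 362, and Ly6c2, the surface marker of inflammatory monocytes, held 310.1, 321, 677 and 193 in controls 1 to 4. Control 3 was highest for 10 of the 16 and control 4 lowest for 10, against 23.6% and 21.3% of all genes with a mean of at least 50. Cd177 and Chil3, named above among the largest spreads, stand in this list. Its leading members Cx3cr1, Ms4a6c and Plac8 were highest in control 2, and its summed level ranged 1.17 times. Among 15 dendritic cell markers, Tcf4 held 1648 ± 166, Batf3 292 ± 32.2 and Clec9a 289 ± 40.8. The lowest of the list were Siglech with 23.7 ± 15.4, Ccr9 with 21.0 ± 7.93 and Xcr1 with 7.28 ± 4.19. Control 3 was highest for 11 of the 15, against 23.6%. Stem and progenitor genes included Myb at 866 ± 182, Gfi1b at 556 ± 66.7 and Meis1 at 209 ± 28.6.

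Among the megakaryocyte and platelet markers, Thbs1 held 2137, 1282, 3547 and 641 and Itgb3 308 ± 88.0. Thbs1 was highest in control 3 and lowest in control 4. Of stromal genes other than collagens, Reln held 417 ± 88.5, Postn 292 ± 56.7 and Dcn 171 ± 62.7. These are values of 1 group and carry no test.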
